A study of Homo sapiens with 6 samples.

Results

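Histone genes of the HIST1 to HIST4 clusters were followed in Huh7 cells, a human hepatoma line, to see whether their transcripts differed after overexpression of hsa_circ_0098181. Genes were included when their symbol began with HIST1H, HIST2H, HIST3H or HIST4H, and 12 such symbols that ended in PS and a number (pseudogene names) were set aside. The naming rule still keeps 5 genes that GENCODE 29 types as pseudogenes: HIST2H2BA, HIST2H2BB, HIST2H2BD, HIST2H3DP1 and HIST3H2BA. This left 76 of the 50868 listed genes: 6 for the linker histone H1, 17 for H2A, 23 for H2B, 15 for H3 and 15 for H4. The HIST1 cluster on chromosome 6 held 55 of them, HIST2 and HIST3 on chromosome 1 held 16 and 4, and HIST4 on chromosome 12 held 1. The overexpression group was 3 Huh7 samples given the plasmid that carries hsa_circ_0098181, a circular RNA from SOX5. The control group was 3 Huh7 samples given the control plasmid, and both groups were transfected with Lipofectamine 2000 and lysed 48 h later for total RNA. All 6 libraries thus came from 1 established line under transient transfection. The labels number the samples of each group 1 to 3 without saying that they were separate cultures, so p-values measure the spread between these samples, which may be technical.

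Histone proteins package DNA. H2A, H2B, H3 and H4 form the octamer of the nucleosome, and H1 binds the DNA that enters and leaves it. The clustered genes are mostly without introns and are transcribed in S phase, when new chromatin is assembled. Their typical mRNA is not polyadenylated but ends a few bases after a conserved 3′ stem-loop, which the stem-loop binding protein SLBP holds through processing, translation and decay. Several clustered genes can also give a longer polyadenylated transcript. How a library was made therefore sets how much of the typical mRNA it can hold, and whether these libraries were selected for poly(A) tails or depleted of ribosomal RNA is not given in the sources used here.

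The stem-loops of genes described here show how alike the 3′ ends of the histone types are. Each is given 5′ to 3′ on the strand of the gene, with the 16 bases of the stem-loop in capitals, 5 neighbouring bases on each side in lower case, and the GRCh38 coordinates of the capitals. The sequences were read from GENCODE 29 transcripts and lie within 1 exon.
HIST1H2AC, chr6:26124669-26124684, plus strand: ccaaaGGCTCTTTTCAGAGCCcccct
HIST2H2AA4, chr1:149851574-149851589, plus strand: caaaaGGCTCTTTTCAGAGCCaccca
HIST2H2BE, chr1:149886188-149886203, minus strand: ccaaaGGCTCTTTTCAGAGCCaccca
HIST1H2BD, chr6:26158587-26158602, plus strand: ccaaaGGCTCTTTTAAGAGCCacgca
HIST1H2AG, chr6:27133515-27133530, plus strand: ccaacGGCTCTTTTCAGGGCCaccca
HIST1H3E, chr6:26225596-26225611, plus strand: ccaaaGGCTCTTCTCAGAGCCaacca
HIST1H4H, chr6:26285131-26285146, minus strand: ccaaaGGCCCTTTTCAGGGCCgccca
HIST2H4A, chr1:149833032-149833047, plus strand: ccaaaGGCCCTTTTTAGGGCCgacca

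A search for the histone 3′ stem-loop on the sense strand of the GENCODE 29 transcripts found it in 34 of the 75 histone genes listed there. Of all 58676 genes with transcripts, 67 held it, or 0.114%. It took 6 forms in the histone genes. The form in HIST1H2AC and HIST2H2BE was the most frequent, in 18 genes of types H2A, H2B and H3, and in 20 of all genes (0.0341%). The 2 forms in HIST1H4H and HIST2H4A were found in 5 and 3 histone genes, all of type H4. The form in HIST1H2BD was in 3 H2B and 2 H3 genes, that in HIST1H2AG in 1 H2A and 1 H2B gene, and that in HIST1H3E in that gene alone among the members. The models of HIST1H2BK and HIST1H1C cover the coding sequence only, so a missing match says nothing about the gene itself.

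The label of the overexpression group was checked first through SOX5, the host gene of the circular RNA. SOX5 stood at 1905, 2396 and 2012 CPM (counts relative to the library total, scaled with TMM library sizes) in overexpression replicates 1 to 3 and at 41.8, 34.4 and 31.3 CPM in control replicates 1 to 3, a log2 fold change of 5.88 (SE 0.16). These counts can include reads from the plasmid and cannot separate circular from linear RNA. Library totals ran from 11130902 to 14138262 counts, and no library was a copy of another of its group, with a chi-square of 10.1 to 20.9 per degree of freedom. Mitochondrial genes took 9.29% of the counts in control replicate 1, against 6.32% to 7.04% in the other libraries. All 13 hepatoma markers passed the count filter, and AFP, the fetal albumin made by hepatoma cells, reached a mean FPKM of 2862. Of 12 markers of blood, endothelial and other cells, 5 passed the filter and CDH5, an endothelial cadherin, had no counts, while LYZ stood at 424 to 521 CPM and PECAM1 at 46.9 to 59.1 CPM.

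Clustered histone transcripts were a very small part of these libraries. The 76 genes held 15236 of 75335080 counts, or 0.0202%. Without TMM scaling, they summed to 216, 198 and 216 CPM in the overexpression libraries and 155, 211 and 213 in the control libraries. Most genes were near the limit of detection: 8 had no counts in any library (HIST1H2AA, HIST1H2BA, HIST1H2BI, HIST1H4F, HIST1H4G, HIST1H4L, HIST2H2BB and HIST3H3), 37 had 1 to 29 counts in all, and 31 had 30 or more. Among the silent ones, HIST1H2AA and HIST1H2BA are known as testis histones, and HIST3H3 likewise encodes the testis variant of H3. In 36 genes at least 1 library had no count. The count filter of the test kept 26 genes, and the 50 others had totals of 0 to 52 counts.

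A few genes held most of the histone counts. The 5 genes with the highest counts (HIST1H2BK, HIST1H1C, HIST1H2AC, HIST2H2AA4 and HIST2H2BE) took 67.4% of them, and the first 10 took 84.1%. By type, H2B took 38.8%, H2A 32.8%, H1 17%, H4 8.41% and H3 3.04%. By cluster, HIST1 took 67.9%, HIST2 26.8%, HIST3 4.74% and HIST4 0.53%. The 4 core histones enter the nucleosome in equal amounts, but that holds for protein. The shares here are of RNA counts, not scaled by gene length, and cannot be set against it. A list of 6 members reported to have polyadenylated transcripts too held 61.6% of the histone counts. They were HIST1H2BK, HIST1H1C, HIST1H2AC, HIST2H2BE, HIST1H2BD and HIST1H2BC. The list was chosen with earlier results of these data known and may not be complete. Its share therefore describes these genes only and is no test of polyadenylation.

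Per length, HIST1H2BK stood highest, with a mean FPKM (fragments scaled by gene length and library total, as deposited) of 120 and a range of 100.4 to 136 over the 6 libraries. HIST1H1C followed at 52.2 FPKM (44.8 to 59.1) and HIST2H2AA4 at 37.4 FPKM (23.3 to 43.3). The ranges of HIST1H1C and HIST2H2AA4 did not meet, nor did those of HIST1H2BK and HIST1H1C. HIST3H2A (9.88 FPKM, 7.13 to 12.5) and HIST2H2AA3 (9.83 FPKM, 3.76 to 13.3) came next and overlapped. HIST1H2AC (6.06), HIST1H2BD (5.90), HIST2H2BD (4.95) and HIST2H2BE (3.77) had overlapping ranges too, and the median over all 76 genes was 0.34 FPKM. The order depends on the gene length behind each FPKM. That length, worked back from counts and FPKM, was 381 bases for HIST1H2BK and 642 for HIST1H1C, whose models cover only the coding sequence, and 4179 bases for HIST1H2AC, whose longest transcript in GENCODE 29 has 1668 bases. The length also exceeded the longest transcript in other genes, such as HIST1H2BD (1285 against 789 bases), HIST1H4H (3594 against 2163) and HIST2H4A (3682 against 1547). FPKM is therefore understated for HIST1H2AC and for such genes.

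The annotated 3′ end of a gene model bears on what could be counted. In 24 members the GENCODE 29 model ran 100 bases or more past the stem-loop, and 18 of these passed the count filter. In 10 the model ended within 100 bases past it, of which 4 passed, and of 41 members whose model held no stem-loop 4 passed. The median total count was 96.5, 21.5 and 9 in these groups. The median FPKM was 0.54, 0.63 and 0.23, so the groups lay closer together by the deposited FPKM. In several members whose model ran 100 bases or more past the stem-loop, such as HIST1H2AC and HIST2H4A, FPKM is understated. There the length behind FPKM exceeded the longest transcript, and the part of this in the closeness was not tested. Long extensions were those of HIST3H2BB (1917 bases past the stem-loop) and HIST1H3E (1862). These groups follow GENCODE 29, and the table gives other coordinates for HIST1H2BA, HIST1H2BB, HIST2H2BD and HIST2H2BE. HIST2H2BD, grouped with the longest models, was counted over chr1:149843041-149843533, a span that ends soon after its stem-loop at chr1:149843495-149843510. The table gives counts per gene, so reads before and after the stem-loop could not be separated, and the part of model length in these levels was not tested. Listed transcripts known to lack poly(A) tails were rare, and why they were rare was not tested. Of 26 listed RNAs, 17 were in the table, and their summed level was 4.52 to 12 CPM per library. RN7SK (log2 fold change 0.14, SE 0.36), a regulator of transcription elongation, and RN7SL2 (0.62, SE 0.44), the RNA of the signal recognition particle listed as Metazoa_SRP, were the 2 that passed the filter.

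**Figure D1:**
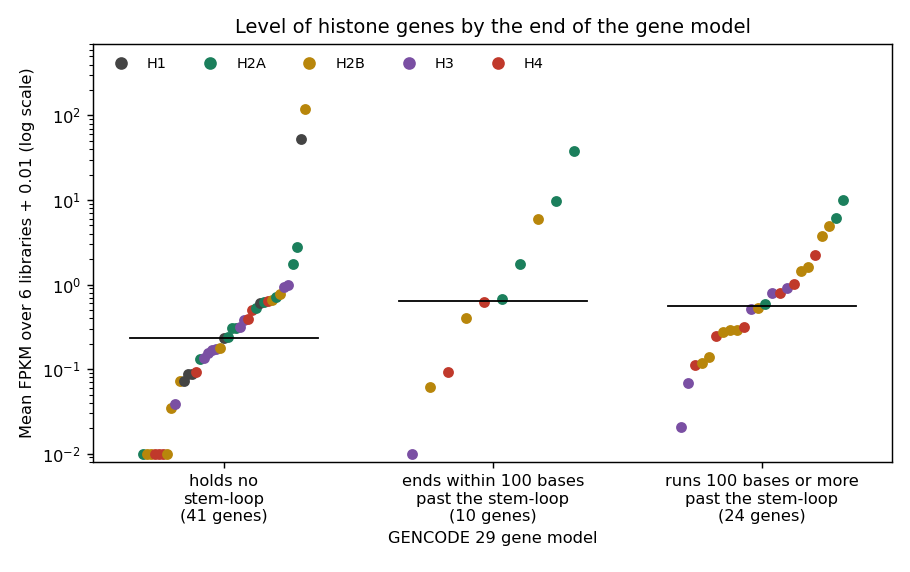
Mean FPKM over 6 libraries plus 0.01 (log axis) for the 75 histone genes found in GENCODE 29, grouped by where the gene model ends relative to the 3′ stem-loop; each point is 1 gene, coloured by histone type, and the black line is the group median. HIST1H2BK and HIST1H1C, at 120 and 52.2 FPKM, are the highest points and have models without a stem-loop. FPKM is understated for genes whose length behind FPKM exceeds their longest transcript, such as HIST1H2AC and HIST2H4A.

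Several members can hardly be told apart by sequence, and the spans of several overlap. Of all 31-base stretches of HIST2H2AA4, 97.2% also occur in HIST2H2AA3, and all those of HIST2H2AA3 are found in another histone gene. For HIST2H4A and HIST2H4B 98.6% and 97.2% were shared, and for HIST2H3A and HIST2H3C 100%. Even so the table splits them: HIST2H2AA3 had 20.4% of the counts of its pair (13.6% to 25.5% by library), HIST2H4B 24.7% (17.2% to 32.6%) and HIST2H3C 11.3%. HIST1H2BK shared 86.3% of its stretches with other genes, 74.4% with H2BFS alone, whereas HIST1H1C shared 0.82%. Spans on the chromosome overlapped as well. The table gives HIST2H2BE as chr1:149842204-149886652, a span that takes in HIST2H2AA3, HIST2H2AA4, HIST2H2BC, HIST2H2BD, HIST2H3A and HIST2H4B, while GENCODE 29 gives it as chr1:149884459-149886652. In all, the spans of 20 members overlapped another histone member and those of 29 any listed gene. A span runs from the first to the last base of a gene and can hold bases that were not counted. The length behind FPKM was 2638 bases for HIST2H2BE and 812 for HIST1H2BB, so most of these 2 spans was not counted. Overlap of the counted bases themselves was not worked out. The treatment of reads with more than 1 matching gene, and whether strand was used, is not given in the sources used here, so the levels of these genes are uncertain.

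No histone gene passed the test between the groups. Of the 26 genes tested with edgeR's quasi-likelihood test, 0 had a Benjamini-Hochberg adjusted p under 0.05, against 0.0399% of all 15055 genes tested, and the adjusted p values ran from 0.797 to 0.987. At an unadjusted p under 0.05 there were also 0 histone genes, where 5.5% of all genes lay, and the smallest was 0.137. DESeq2 called 0 histone genes, against 0.186% of all genes. The log2 fold change (overexpression minus control) was above 0 in 17 genes and below 0 in 9, against 50.5% above 0 over all genes, and its median was 0.09 against 0.0023 for all genes, whose quartiles were −0.13 and 0.14. In bulk RNA, a different share of cells in S phase and a different amount of histone RNA per cell cannot be told apart.

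The precision differed widely among the genes. The 95% interval of the log2 fold change had a half-width of 0.27 for the most deeply covered genes and a median half-width of 0.69. In 16 of the 26 genes the interval lay within −1 and 1, so a change of 1 log2 unit was outside it, while in 10 it reached 1 in either direction. A change of that size in those 10 genes was within the error at this depth, and the 50 genes under the filter were not tested.

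**Figure D2:**
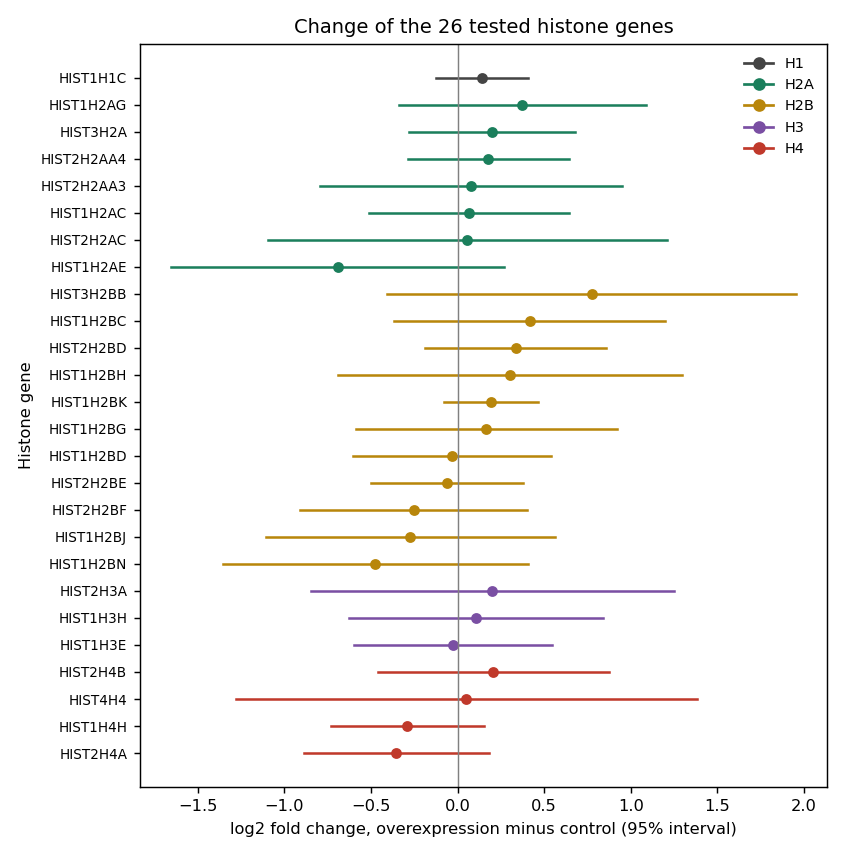
Log2 fold change between overexpression and control (points) with its 95% interval (lines) for the 26 histone genes tested, ordered by histone type. Every interval includes 0, from 0.27 to each side in HIST1H1C and HIST1H2BK to over 1 in genes with few counts such as HIST3H2BB.

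Summed over all 76 genes, the level was 216, 195 and 214 CPM in the overexpression libraries (208 ± 11.2, SD, n = 3) and 160, 211 and 214 CPM in the control libraries (195 ± 30.5, SD, n = 3). Only control replicate 1 stood apart, and the groups overlapped. The log2 ratio of the means was 0.10, and without control replicate 1 it was −0.03.

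H1, the linker histone, was nearly all HIST1H1C (2534 of 2590 counts), the gene of histone H1.2. HIST1H1C was at 37.9, 31 and 36.6 CPM in the overexpression libraries and 29.5, 33 and 33.1 CPM in the controls. The lowest overexpression library lay within the control range, and the log2 fold change was 0.14 (SE 0.12, 95% interval −0.12 to 0.41, edgeR adjusted p = 0.819). HIST1H1E, the gene of H1.4, had 33 counts and HIST1H1B, the gene of H1.5, had 12 counts over the 6 libraries, too few for the test.

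For H2A, which pairs with H2B in the nucleosome, 7 of 17 genes were tested, 6 with a log2 fold change above 0 and 1 below, with a median of 0.08. HIST1H2AC was at 24.4, 22.2 and 31.2 CPM with overexpression and at 16.5, 34.5 and 23.1 CPM in the controls, so the controls held both the lowest and the highest value. Its log2 fold change was 0.07 (SE 0.25). HIST2H2AA4 was at 21, 22.7 and 23.7 CPM against 13.5, 21.4 and 24.5 CPM, and its near copy HIST2H2AA3 at 6.02, 5.78 and 4.85 CPM against 2.12, 7.32 and 6.25 CPM. In both, control replicate 1 was lowest and the other libraries were mixed, with log2 fold changes of 0.18 (SE 0.20) and 0.08 (SE 0.38). HIST3H2A, alone among the H2A genes in the HIST3 cluster, was at 8.28, 9.06 and 11.1 CPM against 6.55, 7.83 and 10.3 CPM, a log2 fold change of 0.20 (SE 0.21) with overlapping groups.

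H2B had the gene with the highest level. HIST1H2BK (chr6:27146418-27146798, minus strand) was at 51.9, 48.7 and 46.3 CPM in the overexpression libraries and 41.3, 38.2 and 48.9 CPM in the controls. Control replicate 3 lay within the overexpression range while the other controls lay under it. Its log2 fold change of 0.19 (SE 0.12, 95% interval −0.08 to 0.46) did not pass the test (edgeR adjusted p = 0.797). HIST2H2BE was at 10.8, 8.92 and 9.61 CPM against 7.84, 10.3 and 12.3 CPM, and HIST1H2BD at 9.77, 5.99 and 6.79 CPM against 5.63, 8.52 and 8.89 CPM. In both the groups overlapped, with log2 fold changes of −0.06 (SE 0.19) and −0.03 (SE 0.25). Of the 11 H2B genes tested 6 were above 0 and 5 below, with a median of 0.17.

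H3 and H4 were read less deeply. HIST1H3E had 2.55, 3.21 and 2.59 CPM with overexpression and 2.12, 3.32 and 3.04 CPM in the controls, a log2 fold change of −0.03 (SE 0.25), and all 3 overexpression libraries lay within the control range. HIST1H3H (log2 fold change 0.11, SE 0.32) and HIST2H3A (0.20, SE 0.46) were near 1 CPM, apart from HIST2H3A in control replicate 1 at 0.28 CPM. HIST2H4A was at 8.64, 6.14 and 7.03 CPM against 6.55, 11.1 and 10.2 CPM in the controls. Control replicate 1 was again the low control and lay among the overexpression values, and the log2 fold change was −0.35 (SE 0.23). HIST2H4B, its near copy, had 3.26, 2.00 and 3.39 CPM against 2.03, 2.30 and 3.13 CPM and a log2 fold change of 0.21 (SE 0.29), so the copies had opposite signs within their errors.

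The medians by type were 0.11 over 3 H3 genes and −0.12 over 4 H4 genes (2 above and 2 below 0). Single libraries turned the sign of 3 of these type medians: H4 was 0.06 without overexpression replicate 2, H3 was −0.17 without control replicate 1, and H2B was −0.02 without overexpression replicate 1. By cluster they were 0.09 over 14 HIST1 genes, 0.08 over 9 HIST2 genes and 0.49 over 2 HIST3 genes (HIST3H2A and HIST3H2BB). HIST4H4, the gene of the HIST4 cluster, had a log2 fold change of 0.05 (SE 0.58), which was −0.02 with the replicate number as a block.

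**Figure D3:**
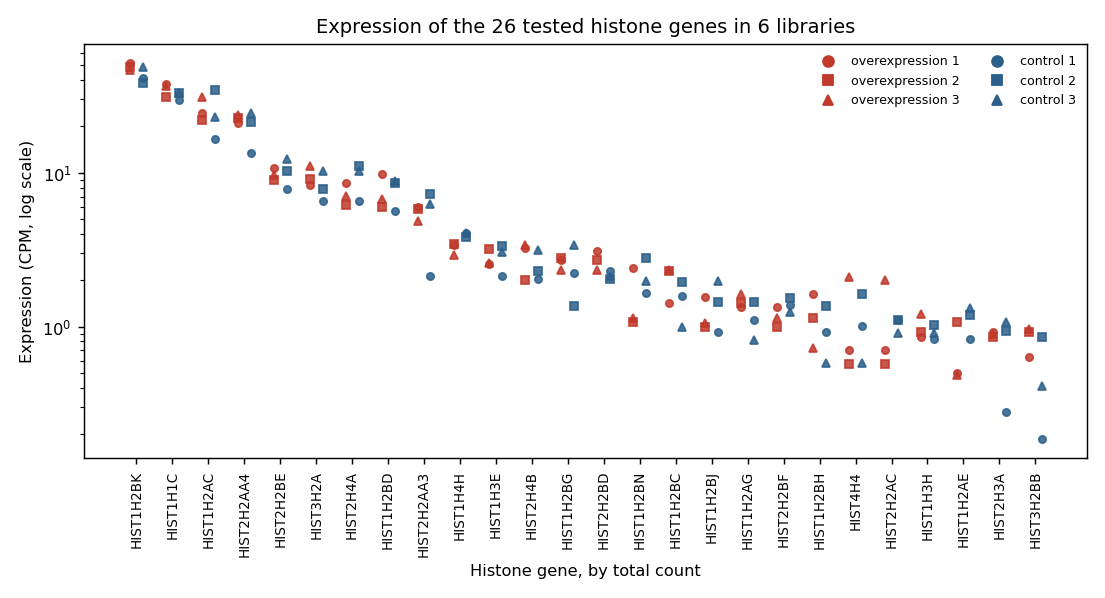
Expression (CPM, log axis) of the 26 tested histone genes in each of the 6 libraries, ordered by total count, with overexpression in red, control in blue and 1 symbol for each replicate number. The genes run from HIST1H2BK, at 38.2 to 51.9 CPM, to genes near 1 CPM, and in 24 of them the groups overlap.

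Among the tested genes the groups did not overlap in 1 gene that was higher and 1 that was lower, where 6.4% of all genes tested were higher and 6.5% lower without overlap. HIST2H2BD, annotated as a transcribed pseudogene, was at 3.11, 2.71 and 2.34 CPM with overexpression and 2.31, 2.04 and 2.14 CPM in the controls (log2 fold change 0.33, SE 0.23). HIST1H4H was at 3.40, 3.43 and 2.91 CPM against 4.06, 3.83 and 4.03 CPM (log2 fold change −0.29, SE 0.19). The exact permutation p, two-sided, was 0.1 for each, the smallest that 3 against 3 libraries allow, and the edgeR adjusted p was 0.797 for both.

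The largest differences belonged to genes with few counts. HIST1H2AE, with 67 counts in all, was at 0.50, 1.07 and 0.49 CPM with overexpression and 0.83, 1.19 and 1.32 CPM in the controls, a log2 fold change of −0.69 (SE 0.42). HIST3H2BB, with 51 counts, was at 0.64, 0.93 and 0.97 CPM against 0.18, 0.85 and 0.41 CPM, a log2 fold change of 0.77 (SE 0.52, 95% interval −0.41 to 1.96). The groups of both overlapped. The log2 fold changes of HIST1H2BN (−0.48, SE 0.38), HIST1H2BC (0.42, SE 0.34) and HIST1H2AG (0.37, SE 0.31) were likewise less than 2 standard errors from 0.

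Summed by type, the overexpression and control libraries overlapped in each of the 5 types. H1 stood at 35.9 ± 3.74 against 32.7 ± 1.84 CPM (log2 ratio 0.14), H2A at 68.9 ± 7.29 against 63.1 ± 17.9 CPM (0.13) and H2B at 81.1 ± 6.95 against 75 ± 9.12 CPM (0.11), each as mean ± SD with n = 3. H3 stood at 6.39 ± 0.35 against 5.83 ± 1.38 CPM (0.13) and H4 at 16 ± 1.85 against 18.2 ± 3.04 CPM (−0.19). Control replicate 1 was the lowest control in all 5 types. Without it the log2 ratio was 0.09 for H1, −0.09 for H2A, 0.04 for H2B, −0.05 for H3 and −0.32 for H4.

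**Figure D4:**
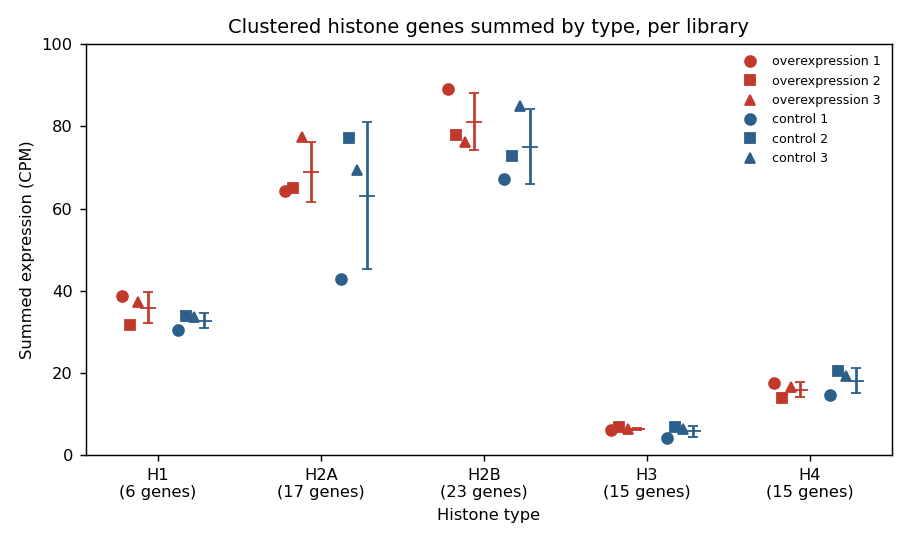
Summed expression (CPM) of the histone genes of each type in each library, with overexpression in red and control in blue, 1 symbol for each replicate number, and the mean with its SD (n = 3) beside the points. H2A and H2B are highest and the groups overlap in all 5 types, with control replicate 1 low in each.

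Control replicate 1 was most often the lowest library. Of the 26 tested genes, 12 had their lowest level in control replicate 1 and 1 had its highest there, whereas among all genes tested 26.5% were lowest and 26.6% highest in that library. The median deviation of the histone genes from their mean over the 6 libraries, on the log2 CPM scale, was −0.16 in control replicate 1, 0.14 and 0.12 in the other controls, and 0.08, 0.01 and −0.0015 in the overexpression libraries. Without control replicate 1 the median log2 fold change over the histone genes was 0.02, with 14 of 27 above 0 and 13 below. This library also had the lowest total count and the highest mitochondrial share, and their part in the result was not tested.

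Genes whose proteins make and retire histone mRNA were all deep enough for the test. All 30 genes listed for histone mRNA transcription, processing and decay were tested, 0 passed, and the median log2 fold change was −0.03. SLBP was at 163, 117 and 120 CPM with overexpression and 151, 112 and 146 CPM in the controls, with overlapping groups and a log2 fold change of −0.03 (SE 0.16). UPF1, the helicase that takes part in histone mRNA decay, had a log2 fold change of 0.06 (SE 0.11). Unadjusted p values under 0.05, which 5.5% of all genes had, were found for 2 of the 30, CCNE1 and E2F1. CCNE1 (0.35, SE 0.12) is the cyclin that drives cells into S phase. E2F1 (0.32, SE 0.11) is a transcription factor of S phase genes. Both were higher, with an edgeR adjusted p of 0.797. Of the 23 histone chaperones, which carry histones to DNA, 0 passed and the median was 0.01. NPM1, the most abundant, had a log2 fold change of 0.09 (SE 0.08). Unadjusted p values under 0.05, which 5.5% of all genes had, were found only for TONSL (0.29, SE 0.12) and ATRX (−0.27, SE 0.11).

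Histone genes outside the clusters' naming held far more counts than the clustered genes together. They were mostly variants such as H3.3 and H2A.Z that are also made outside S phase. The list includes H2AFX, whose mRNA can also end at a stem-loop, and H2BFS, which shares sequence with HIST1H2BK. The summed level was 985 to 1072 CPM per library for the 20 listed genes, against 160 to 216 CPM for the 76 clustered genes. These sums are not scaled by gene length, and the sums per length were not compared. Of the 12 that were tested 0 passed, and the median log2 fold change was 0.15. The groups did not overlap in 2 that were higher (H2AFZ and H2AFJ) and 1 that was lower (H3F3B). Over all genes tested those shares were 6.4% and 6.5%. H3F3B, which encodes the variant H3.3, was at 173, 162 and 160 CPM with overexpression and 218, 199.9 and 308 CPM in the controls. Its groups did not overlap, and the log2 fold change was −0.55 (SE 0.16, unadjusted p = 0.00708, edgeR adjusted p = 0.797). H2AFZ, the gene of H2A.Z, was at 198, 181 and 189 CPM against 107, 163 and 179 CPM, also without overlap but with control replicate 1 far under the rest, and had a log2 fold change of 0.34 (SE 0.17).

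Genes that mark the cell cycle were set beside the histone genes, since most clustered histone transcripts are made in S phase. Of 31 S phase genes 0 passed edgeR's adjusted threshold. The log2 fold change was above 0 in 26 of them, against 50.5% of all genes, the median was 0.10, and the groups did not overlap in 7 that were higher and 1 that was lower, where 6.4% and 6.5% of all genes lay. PCNA, the sliding clamp of DNA replication, was at 310.4, 232 and 245 CPM against 202, 225 and 242 CPM (log2 fold change 0.23, SE 0.13). MCM7, a subunit of the replicative helicase, had a log2 fold change of 0.19 (SE 0.10). Unadjusted p values under 0.05, which 5.5% of all genes had, were found for GINS4, POLD1, CCNE1 and E2F1, all higher. GINS4, which belongs to the GINS complex of the helicase, was at 47.3, 28.4 and 51 CPM against 18.3, 17.9 and 19.3 CPM, without overlap, a log2 fold change of 1.19 (SE 0.21, edgeR adjusted p = 0.403, DESeq2 adjusted p = 0.0001). Without overexpression replicate 2 its edgeR adjusted p was 0.0086. CCNE1, E2F1 and SLBP are in both this list and that of histone mRNA processing.

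Of 20 G2/M genes, which act after S phase, 0 passed and the median was −0.02. Only CDK1, the mitotic kinase, had an unadjusted p under 0.05 (log2 fold change 0.20, SE 0.09), where 5.5% of all genes lay. TPX2, the most abundant, had a log2 fold change of −0.16 (SE 0.10). MKI67, a marker of cycling cells, varied from 129 to 477 CPM among the controls alone and had a log2 fold change of 0.21 (SE 0.44).

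By library, the median deviation of the S phase genes was 0.09, 0.02 and 0.03 with overexpression and −0.10, −0.02 and −0.01 in the controls, on the log2 CPM scale. The lowest S phase value and the lowest histone value were both in control replicate 1. The other controls, at 0.14 and 0.12 for the histone genes, were the highest libraries for the histone genes but not for the S phase genes.

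**Figure D5:**
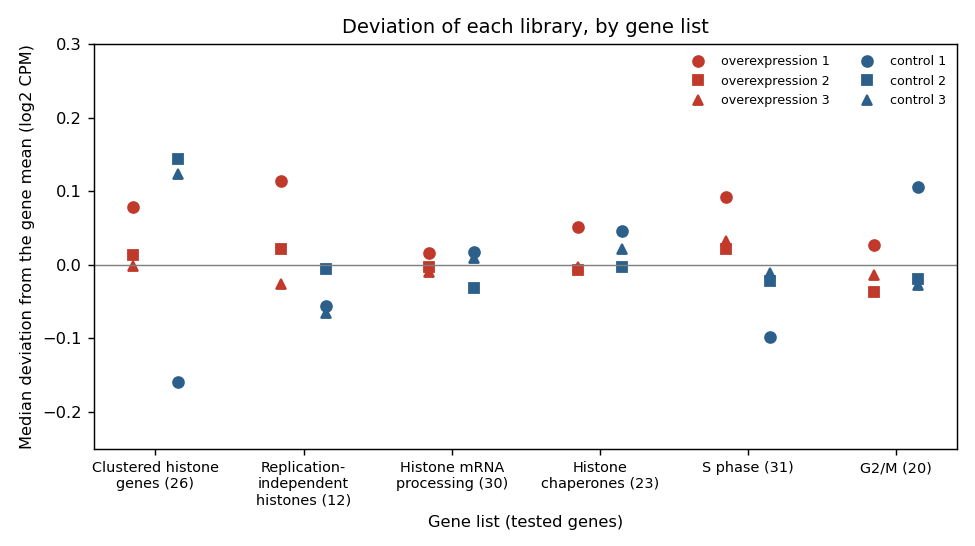
Median deviation of each library from the gene means (log2 CPM) for the 26 tested clustered histone genes and 5 related gene lists, with overexpression in red, control in blue and 1 symbol for each replicate number. Among the lists shown, the clustered histone genes spread most widely. They ran from −0.16 in control replicate 1 to 0.14 in control replicate 2, against −0.10 to 0.09 for the S phase genes. Many of them had few counts, and the part of depth in this spread was not tested. RNA without poly(A) tails (2 genes tested) is not shown and ran from −0.39 in control replicate 1 to 0.66 in overexpression replicate 3.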

How the data were processed

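RNA of 6 Huh7 samples was measured, 3 per group. For each gene, the authors deposited whole-number counts and FPKM of every library in 1 table. The submitters' processing notes name TopHat2 2.0.9 and hg38. The counting tool, annotation release, strand and handling of multiply matching reads are not given in the sources used here. The deposited counts were not normalized, and the deposited FPKM was used for levels per length only.

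Counts were tested with edgeR 4.0.16 in R 4.3.3 (filterByExpr, minimum count 10; TMM; glmQLFit and glmQLFTest with group as the only term; two-sided; Benjamini-Hochberg over 15055 genes). The biological coefficient of variation was 16.1%. SE was derived from the F statistic. CPM used TMM library sizes, and exact permutation tests used log2(CPM + 0.5). The fits were also run on counts simulated from the fitted dispersions, and no result given here rests on that run. Alternatives were upper-quartile or RLE scaling, DESeq2 1.42.0, no filter beyond 1 count, a mean of at least 50 counts, limma 3.58.1 on log2(FPKM + 1), a replicate block, each library left out, and, chosen after seeing the data, near-identical copies summed and type sums without each library. The limma fit kept genes of at least 1 FPKM in 3 libraries.

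Genes and sequences were matched by ID to GENCODE 29 (GRCh38), which held 75 of the 76 members, 71 with the same coordinates. A shared stretch is 31 bases. Members and gene lists were chosen with earlier results of these data known. Named were the 3 most abundant genes of each type, the 3 largest changes in each direction, the most abundant gene and that of smallest p in each related list, and SLBP, MKI67, PCNA, H2AFZ, H3F3B and SOX5. HIST2H2AA3, HIST2H2BD, HIST4H4, E2F1, POLD1, ATRX, AFP and the other marker genes were named after their values were seen. Intervals cover the spread between libraries and no other error.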

Additional observations from a re-analysis of the deposited data

How the results depend on the processing

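In every setting 0 histone genes passed the adjusted threshold, and the median log2 fold change of all tested histone genes stayed above 0, at 0.02 (without control replicate 1) to 0.17. Unadjusted p values under 0.05 came up for at most 2 genes in a setting (HIST1H2AM and HIST2H2BD with limma, HIST1H2AM and HIST1H2BN without overexpression replicate 1). HIST1H2AM had 9, 14 and 13 counts with overexpression and 6, 5 and 5 in the controls, and was under the main count filter. Without overexpression replicate 1 it could pass that filter only through the overexpression libraries, where it was high. Its p value there is therefore no support for a difference. The replicate numbers did not pair the libraries (correlations −0.0254, 0.00199 and −0.0282), and with the replicate block the median was 0.13 and 0 histone genes passed. Summing near-identical copies gave a median of 0.09. With a mean of at least 50 counts the medians were −0.030 for H2B and −0.35 for H4. Without the filter they were 0.49 for H3 and 0.14 for H4. With limma they were −0.0067 for histone mRNA processing and −0.049 for RNA without poly(A) tails, from 2 genes in the edgeR fit. Leaving out 1 library gave −0.016 to 0.23 for H2B, −0.17 to 0.19 for H3, −0.27 to 0.063 for H4, 0.016 to 0.31 for H2A, −0.043 to 0.014 for histone mRNA processing, −0.0082 to 0.044 for chaperones, 0.059 to 0.17 for replication-independent histones, −0.072 to 0.027 for G2/M genes and −0.0050 to 0.65 for RNA without poly(A) tails. Of the S phase genes, GINS4 passed with DESeq2, without the filter (1 gene each) and without overexpression replicate 2, so leaving out 1 library gave 0 to 1 genes. The cause of these shifts was not tested.

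The replicate block turned HIST4H4 to −0.020. The other changes of direction among named genes came from leaving out 1 library. Over those settings the log2 fold change ran from −0.15 to 0.38 for HIST1H2AC, −0.031 to 0.36 for HIST2H2AA4, −0.29 to 0.39 for HIST2H2AA3, −0.21 to 0.11 for HIST2H2BE, −0.27 to 0.11 for HIST1H2BD, −0.19 to 0.10 for HIST1H3E, −0.049 to 0.21 for HIST1H3H, −0.17 to 0.52 for HIST2H3A, −0.73 to 0.48 for HIST4H4, −0.024 to 0.15 for UPF1, −0.0050 to 0.87 for RN7SL2 (Metazoa_SRP), −0.096 to 0.43 for RN7SK, −0.21 to 0.052 for SLBP and −0.13 to 0.89 for MKI67.

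The depth of the histone genes limits the comparison: 50 of 76 were not tested, and 10 of the 26 tested have intervals that reach 1 log2 unit.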
